A study of Mus musculus with 6 samples.

Results

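The chaperonin of the eukaryotic cytosol, called TRiC or CCT, was examined in mouse testis through the 9 genes that encode its subunits: Tcp1, Cct2, Cct3, Cct4, Cct5, Cct6a, Cct6b, Cct7 and Cct8. The members were chosen by gene symbol, with every probe set of the array annotated to one of these symbols alone, a rule that uses no measured value. They comprised 24 of 22626 probe sets and 9 of 12393 named genes. The data are 6 Affymetrix mouse expression arrays, 3 of a fraction whose title reads spermatogonial stem cells and 3 of total testicular cells, as the title has it. Both groups came from CD4HAglo transgenic mice, in which a shortened Stra8 promoter drives a surface protein with domains of human CD4, so the controls carried the transgene too. The stem cell fraction was what magnetic beads against this protein retained from suspended testicular cells, and each such preparation pooled 50 males. The labels give a second name to the controls, testis cells negative for CD4, and their age, strain and number are not given in the sources used here. Whether the arrays of a group hold separate pools of animals is not stated in full, so p-values measure only the spread between these samples, which may be technical. The promoter fragment sets which cells are retained, and cells that bind beads for another reason would be retained as well.

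The chaperonin consists of a pair of stacked rings that enclose a folding chamber, and each ring holds one copy of every kind of subunit. The subunits are related in sequence, and ATP binding and hydrolysis in the ring close the chamber over the protein inside. Actin and tubulin need this machine to fold, and many proteins built on WD40 repeats, among them activators of the anaphase-promoting complex and G protein beta subunits, use it too. Prefoldin hands unfolded actin and tubulin to the rings, phosducin-like proteins bind them as cochaperones, and tubulin cofactors assemble the released tubulins. In the testis, Tcp1 was first known as a product of the mouse t-complex that is abundant in male germ cells, and Cct6b is a paralogue of Cct6a known for its expression in testis.

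Values are log2 levels per probe set as deposited, and a positive difference means a higher level in the stem cell fraction. A gene is shown by its brightest probe set, and levels of different probe sets are not compared, since each binds with its own efficiency. Background was set at log2 2.15 from bacterial control probe sets, and each array had 79.7% to 84.1% of its probe sets above it. Total testicular cell arrays correlated with one another at r between 0.992 and 0.995 over all probe sets, and stem cell arrays at r between 0.970 and 0.984. Stem cell array 1 stood apart on the first principal component, which held 72.9% of the variance. The arrays ran on the fluidics station in 3 rounds, with total testicular cell arrays 1 and 3 and stem cell array 1 in the first, stem cell array 3 alone in the second, and array 2 of both groups in the third.

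The make-up of the fractions touches every comparison that follows. Of 12 macrophage markers, 10 rose in the stem cell fraction, where 1.63% of all named genes did, and their summed log2 level ranged from 8.10 to 8.69 on the total testicular cell arrays and from 11.46 to 13.35 on the stem cell arrays, where array 1 was highest. Csf1r, the receptor of macrophage colony-stimulating factor, rose by 4.76 ± 0.45 (SE, n = 3 per group; adjusted p = 0.00488), and the macrophage lysozyme Lyz2 rose by 4.69 ± 0.46 (adjusted p = 0.00488). Leydig cell markers ranged from 8.01 to 9.26 against 9.60 to 11.65 in summed level, with 0 of 5 past the adjusted threshold and 5 of 5 higher at an unadjusted p of 0.05, beside 11.8% of all named genes. Star, which brings cholesterol to Leydig cell mitochondria, differed by 1.85 ± 0.52 (adjusted p = 0.0972). Sertoli cell markers ranged from 8.53 to 8.77 against 9.73 to 11.12, and 1 of 8 rose, the secreted chaperone Clu, by 2.02 (adjusted p = 0.0234). That sum mostly follows Clu, the brightest of the 8, with group means of 8.27 and 10.29. The median difference of the list was 0.19. Markers of peritubular myoid, endothelial and red cells and of differentiating spermatogonia had 0 of 4, 0 of 4, 0 of 2 and 0 of 4 past the threshold. Markers of undifferentiated spermatogonia, the cells that the fraction is titled for, ranged from 8.36 to 8.42 against 7.61 to 8.29, and 0 of 12 passed. This lower sum mostly follows Id4, the brightest of the 12, which differed by -0.55 (adjusted p = 0.232). Of the 12, 5 had a positive and 7 a negative difference, with a median of -0.08. The highest was that of Itga6, 0.99 (adjusted p = 0.0739). Lin28a and Cdh1 of that list lay below background. Stra8, whose promoter drives the transgene, differed by 1.01 ± 0.26 (adjusted p = 0.0832). Genes of spermatocytes and spermatids stayed bright on all 6 arrays, with summed levels from 12.66 to 12.96 and from 15.002 to 15.33, and the differences of Sycp3 of the synaptonemal complex and of the protamine Prm1 were 0.02 ± 0.15 and -0.05 ± 0.08. The gap between 3′ and 5′ actin control probe sets, a sign of RNA quality, was 0.24 to 0.45 on total testicular cell arrays and 0.41 to 0.58 on stem cell arrays. The same gap for Gapdh was -0.18 to -0.04 on total testicular cell arrays and -0.45, -0.43 and 0.09 on stem cell arrays. The part of these cell types and of RNA quality in the values of the chaperonin genes was not tested.

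No subunit gene passed the test. All 9 were bright in both fractions, and 0 of 9 passed an adjusted p of 0.05 in either direction (limma with Benjamini-Hochberg adjustment over all probe sets, two-sided), where 1.77% of the named genes passed. At the looser threshold of 0.10 it was again 0 of 9, beside 7.21%. At an unadjusted p of 0.05, 1 of 9 was lower, Cct6b, and 0 of 9 were higher, beside 13.1% and 11.8% of all named genes. The differences of 8 of the 9 genes were negative, with a median of -0.19, but a negative difference was also found for 57% of all named genes, whose median was -0.05. Cct6a alone had a positive difference, as 43% of all named genes did, and its sign turned when arrays were centred on their medians (-0.01) or on the spiked hybridization controls (-0.06). The 95% intervals of the 9 differences ran from -0.79 at the lowest, for Cct6b, to 0.36 at the highest, for Cct6a. On simulated arrays the test found only 8.96% of changes of 0.5 in log2. These changes were placed in probe sets of any brightness, so that share is not specific to the bright subunits. The 95% intervals of Cct2, Cct5, Cct6b and Cct8 reached beyond a fall of 0.5. Those of Tcp1, Cct3, Cct4, Cct6a and Cct7 stayed under 0.5 in either direction, by the spread between these samples only. The lack of a call alone therefore does not show that a change of this size is absent. In such mixed fractions, fewer cells of a type and less RNA per cell cannot be told apart.

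The subunit genes belong to the brightest part of the array, and bright genes as a class had negative differences. A set of 582 genes at least as bright as the dimmest subunit gene, chosen after the values were seen, had a median difference of -0.17, against -0.19 for the subunits. It had no upper limit of brightness and included the subunits, so it is not a matched set. In that set, 81.4% of the genes had a negative difference, and its middle 50% ran from -0.26 to -0.05. The shift of the 9 subunits relative to their mean in total testicular cells had a median of -0.01, 0.08 and -0.08 on the 3 arrays of those cells. On stem cell arrays 1, 2 and 3 it was -0.27, -0.05 and -0.17. The genes of the bright set shifted by -0.36, -0.09 and -0.05 on the same stem cell arrays. Both were lowest on stem cell array 1. Without that array the median was -0.16 for the subunits, with 7 of 9 negative, and -0.08 for the bright genes, with 74.4% negative.

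**Figure D1:**
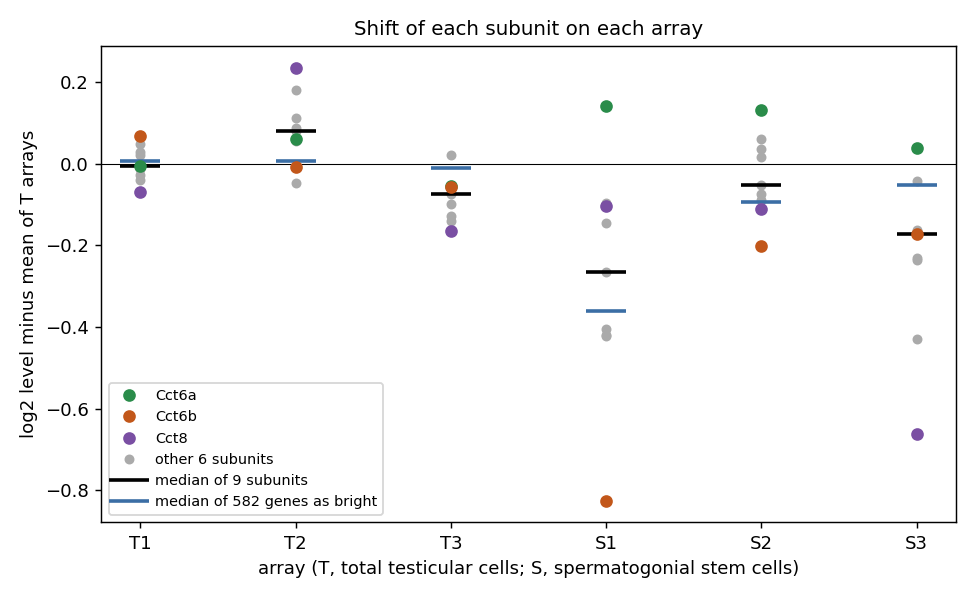
Shift of each subunit gene on each array, as the log2 level minus the mean over total testicular cells (arrays T), with the stem cell arrays as S. Black bars are the median of the 9 subunits and blue bars the median of 582 genes at least as bright as the dimmest subunit. The subunits lay within -0.17 to 0.24 on the T arrays, and Cct6b on S1 (-0.83) and Cct8 on S3 (-0.66) lay lowest on the S arrays.

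Tcp1 encodes the alpha subunit, which gave the complex its name. Its level was 11.90, 12.01 and 11.87 on total testicular cell arrays 1, 2 and 3 and 11.66, 11.94 and 11.76 on stem cell arrays 1, 2 and 3. Stem cell array 2 reached into the range of the total testicular cells and the other two lay below it. The difference was -0.14 ± 0.10 (SE, n = 3 per group; 95% interval -0.36 to 0.08; adjusted p = 0.415). Without stem cell array 1 it was -0.07.

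In the assembled ring, Cct2, Cct4 and Cct5 lie on the side that binds ATP tightly. Cct2, the beta subunit, measured 10.17, 10.09 and 10.16 in total testicular cells and 9.74, 10.07 and 9.91 in stem cells. All 3 stem cell arrays lay below all 3 total testicular cell arrays. Such a lower, non-overlapping pattern was found for Cct2 and Cct6b, 2 of 9 subunits, and for 19.2% of all named genes. No subunit was higher without overlap, a pattern of 13.8% of all named genes. The Cct2 difference of -0.24 ± 0.12 (95% interval -0.50 to 0.02) did not pass (adjusted p = 0.249). It was -0.43 within the first fluidics round and -0.03 within the third, and -0.16 without stem cell array 1.

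Cct4, the delta subunit, in which a missense change causes a sensory neuropathy in rats, measured 10.39, 10.43 and 10.22 in total testicular cells and 10.20, 10.26 and 10.11 in stem cells. Only total testicular cell array 3 reached into the stem cell range. The difference was -0.16 ± 0.11 (adjusted p = 0.403), and it was -0.11 and -0.17 within the first and the third rounds. Cct5, the epsilon subunit, altered in a human hereditary sensory neuropathy, measured 9.82, 9.95 and 9.73 in total testicular cells and 9.41, 9.78 and 9.40 in stem cells. Stem cell arrays 1 and 3 lay below every total testicular cell array and stem cell array 2 lay among them. The difference was -0.30 ± 0.14 (95% interval -0.61 to 0.01; adjusted p = 0.221), a ratio of 1.23 in favour of total testicular cells. It kept its sign within the first round (-0.36), within the third (-0.17) and without stem cell array 1 (-0.24).

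Cct7, the eta subunit, measured 10.19, 10.22 and 10.09 in total testicular cells and 9.74, 10.20 and 9.99 in stem cells. Stem cell array 2 lay within the range of the total testicular cells. The difference was -0.19 ± 0.13 (adjusted p = 0.423), and it was -0.02 within the third round and -0.067 without stem cell array 1. Cct8, the theta subunit, measured 8.98, 9.28 and 8.88 in total testicular cells and 8.94, 8.94 and 8.38 in stem cells. Stem cell array 3 alone was low, and the groups overlapped. The difference was -0.29 ± 0.18 (95% interval -0.71 to 0.12; adjusted p = 0.362), with 0.01 in the first round and -0.35 in the third. Without stem cell array 3 it was -0.11 (adjusted p = 0.704), and without stem cell array 1 it was -0.39 (adjusted p = 0.302). Cct8 therefore had its lowest value on another array than Tcp1, Cct2, Cct6b and Cct7, which were lowest on stem cell array 1.

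Cct3, the gamma subunit, measured 10.17, 10.39 and 10.07 in total testicular cells and 10.11, 10.27 and 10.17 in stem cells. The groups overlapped fully. The difference of -0.03 ± 0.12 (95% interval -0.29 to 0.24; adjusted p = 0.916) was the smallest of the 9 in size. It became 0.01 without stem cell array 1.

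**Figure D2:**
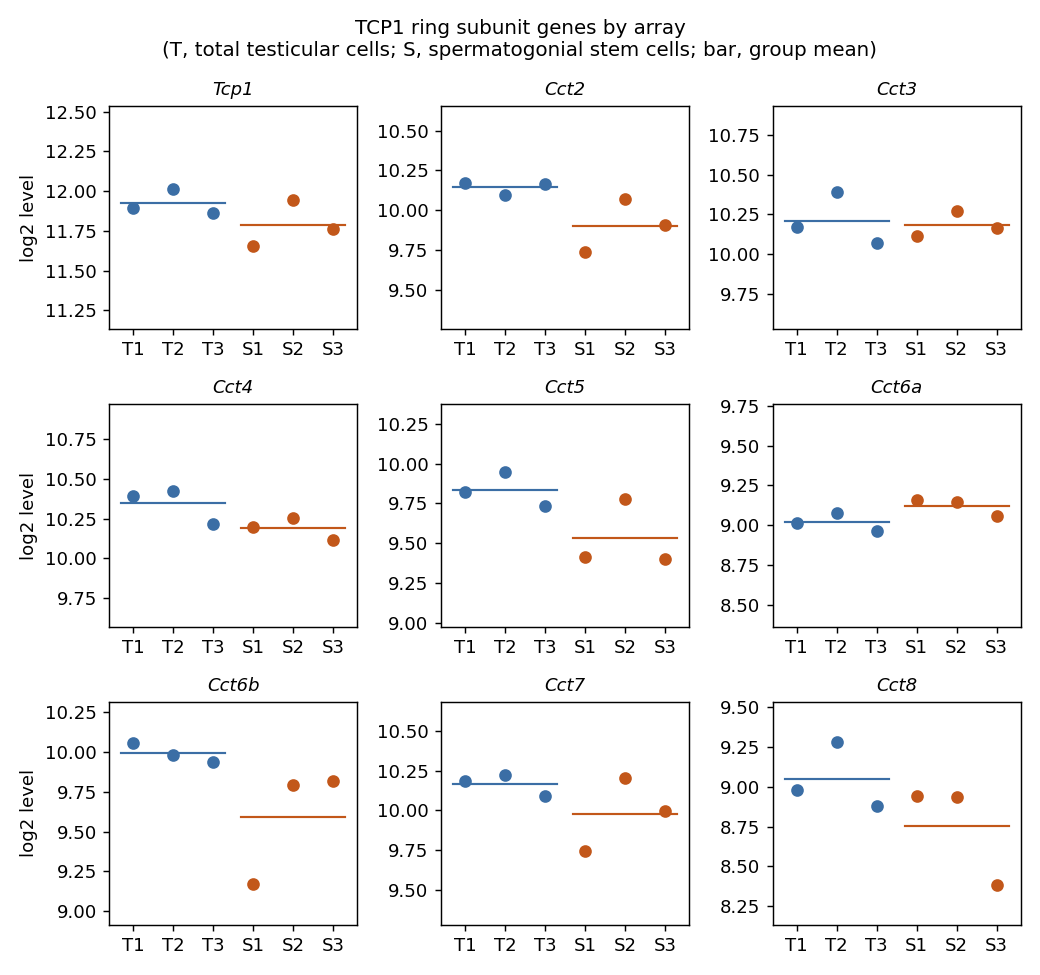
Log2 level of each subunit gene on each array, with 1 panel per gene, T for total testicular cells, S for spermatogonial stem cells and a bar at the group mean; every panel spans the same height on the log2 scale. The groups are separate for Cct2 and Cct6b, and the lowest S point is S1 in Tcp1, Cct2, Cct3, Cct6b and Cct7, and S3 in Cct4, Cct5, Cct6a and Cct8.

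The zeta position of the ring can be filled by either of a pair of paralogues, the general Cct6a and the testis form Cct6b. Cct6a measured 9.01, 9.08 and 8.96 in total testicular cells and 9.16, 9.15 and 9.06 in stem cells. Stem cell array 3 lay among the total testicular cells and the other two just above them. The difference was 0.10 ± 0.11 (95% interval -0.15 to 0.36; adjusted p = 0.621). Cct6b measured 10.06, 9.98 and 9.94 in total testicular cells and 9.17, 9.79 and 9.82 in stem cells. All 3 stem cell arrays were lower, and array 1 was far below the other two. The difference was -0.40 ± 0.17 (95% interval -0.79 to -0.01; adjusted p = 0.204), a ratio of 1.32 in favour of total testicular cells. Without stem cell array 1 it was -0.19 (adjusted p = 0.316), and within the first and the third rounds it was -0.83 and -0.19.

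Within each array, the log2 level of Cct6b minus that of Cct6a compares the paralogues without any scaling between arrays, though its absolute size depends on the probes. It was 1.05, 0.91 and 0.97 in total testicular cells and 0.01, 0.64 and 0.76 in stem cells. All 3 stem cell arrays were lower, with means of 0.98 ± 0.07 and 0.47 ± 0.41 (SD, n = 3 per group). The difference of the ratio was -0.50, with an exact two-sided permutation p of 0.1, the smallest that 3 arrays against 3 allow. It was -1.001 in the first round, -0.26 in the third and -0.27 without stem cell array 1. Taking Cct6a as the mean of its probe sets gave -0.47 with groups that were no longer the most extreme split (exact permutation p = 0.2). On the stem cell arrays macrophage marker levels ran against this ratio, highest on array 1 where the ratio was lowest. The summed levels of Leydig and Sertoli markers and the actin gap were also highest on that array. The part of each in the ratio was not tested. Whether probes of one paralogue also bind the other was not tested.

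The genes of the ring sit close to the start of another gene. In RefSeq promoter windows of assembly GRCm38.p6, 8 of the 9 genes had an entry, and Cct4 did not. A gene on the opposite strand, pointing away, started within 1000 bases of 7 of these 8 genes, while 12.3% of 27025 genes in the table and 2302 of its 17492 coding genes had such a neighbour. The partners were Mrpl18 for Tcp1 (238 bases between the starts), Tsacc for Cct3 (136), Atpsckmt for Cct5 (270), Psph for Cct6a (103), Zfp830 for Cct6b (24), Pradc1 for Cct7 (203) and the noncoding RNA gene B130034C11Rik for Cct8 (204). The bases between the starts are shown for Cct6a and Cct6b, the paralogues with differences of opposite sign, and for Cct3. No gene of the table covers the gaps of Cct3 and Cct8, while Psph covers that of Cct6a and Cct6b covers its own. Each is read 5′ to 3′ along the strand of the chaperonin gene, and capitals mark CCAAT, the letters known from NF-Y binding, and GGAAG, the core letters bound by ETS factors, on either strand.
Cct6a, plus strand, chr5:129787254-129787355: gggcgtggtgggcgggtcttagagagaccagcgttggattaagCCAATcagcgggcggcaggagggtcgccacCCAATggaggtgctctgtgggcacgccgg
Cct6b, minus strand, chr11:82764322-82764344: agCTTCCgaggcgtgatagcgtc
Cct3, plus strand, chr3:88297000-88297134: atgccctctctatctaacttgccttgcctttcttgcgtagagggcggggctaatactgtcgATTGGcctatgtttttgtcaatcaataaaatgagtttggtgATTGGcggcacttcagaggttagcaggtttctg
The Cct6a gap of 102 bases and the Cct3 gap of 135 bases each held 2 matches to CCAAT. The Cct6b gap, of only 23 bases, held 0 and had 1 match to GGAAG. The Cct8 gap, not printed, had 203 bases with 0 matches to CCAAT and 1 to GGAAG. Since the gaps differ in length, their counts cannot be compared directly.

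Over the 10 member windows of 250 bases before a start, CCAAT occurred on either strand in 4, those of Tcp1, Cct3, Cct6a and Cct7, and in 33.8% of 32851 windows of this length in the table. GGGCGG, the GC box known from Sp1 binding, occurred in 8 of 10 and in 32.7% of all windows. Cct6b was the one gene of the 8 without it. GGAAG occurred in 7 of 10 and in 64.1% of all. TGACG, letters of the cAMP response element, occurred in the Cct6a window alone, with 3 matches, and in 17.8% of all. GAANNTTC, the core of heat shock elements with N for any base, occurred in 1 of 10, a window of Cct2, and in 6.69% of all. The motifs were searched independently, none of them contains another, and a match describes letters only. Where an array value could be given, the neighbours had negative differences, as 57% of all named genes did. Mrpl18, a mitochondrial ribosomal protein, had -0.44 ± 0.19 and Psph, the last enzyme of serine synthesis, -0.45 ± 0.20. The zinc finger gene Zfp830 had -0.51 ± 0.20 and Pradc1 -0.46 ± 0.19. None of these 4 passed (adjusted p from 0.171 to 0.214). Psph thus had a negative value beside the positive one of Cct6a, and its arrays ran 5.58, 5.76 and 5.50 against 5.03, 5.51 and 4.94.

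Most subunits are read by more than 1 probe set, and these gave unequal differences for the same gene. Of the 24 probe sets, 22 lay above background. A probe set of Cct4 (1415868_at) and one of Cct8 (1436973_at) lay below it on all 6 arrays, at 1.88 or less, and no direction is read from them. At an adjusted p of 0.05, 0 of 24 passed, where 1.55% of all probe sets did, and at an unadjusted p of 0.05 it was 2 of 24, beside 23.5%. The 6 probe sets of Cct3 ran from -0.44 to 0.09, and the 6 of Cct4 from -0.24 to 0.22. The 3 of Cct2 ran from -0.24 to -0.06. Cct4 is shown by 1433447_x_at, and whether its probes also bind other transcripts was not tested.

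The lowest difference among all 24 belonged to the second probe set of Cct7, 1415817_s_at, whose suffix marks probes shared with other transcripts. It measured 9.65, 9.80 and 9.63 in total testicular cells and 9.01, 9.53 and 9.22 in stem cells. All stem cell arrays were lower. Its difference was -0.44 ± 0.15 (unadjusted p = 0.0152; adjusted p = 0.131), while the main probe set of Cct7 gave -0.19. For Cct3, 1449645_s_at, with the same suffix, measured 9.15, 9.19 and 9.03 in total testicular cells and 8.36, 9.22 and 8.47 in stem cells. Stem cell arrays 1 and 3 were low and stem cell array 2 lay just above the highest control. Its difference was -0.44 ± 0.21 (adjusted p = 0.242). When stem cell array 2 was left out, these 2 probe sets passed, with differences of -0.58 (adjusted p = 0.0408) and -0.71 (adjusted p = 0.0301). Without stem cell array 1 they were -0.32 (adjusted p = 0.214) and -0.28 (adjusted p = 0.485), and without stem cell array 3 they were -0.43 (adjusted p = 0.156) and -0.34 (adjusted p = 0.375). Both probe sets of Cct6a had positive differences, 0.10 and 0.03, with the sign of each turning under the centrings named above.

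**Figure D3:**
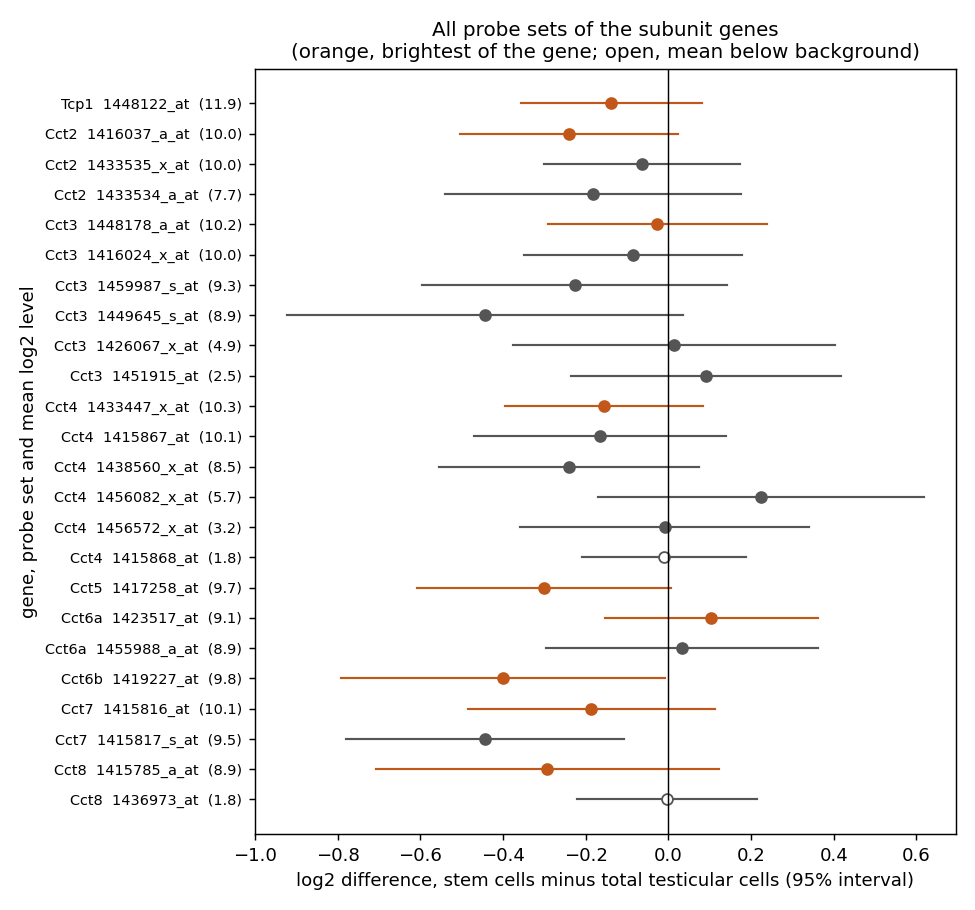
Log2 difference, stem cells minus total testicular cells, of all 24 probe sets of the subunit genes with 95% intervals; the mean log2 level stands beside each name, orange marks the brightest probe set of a gene and open circles a mean below background. Intervals leave out 0 for 2 probe sets, 1419227_at of Cct6b and 1415817_s_at of Cct7, and none of the 24 passed after adjustment.

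How closely the subunits moved together was described by correlations over the 6 arrays, which share one scaling and the 2 groups. Among the subunits other than Cct6b, each gene was set against the mean of the other seven. Pearson's r was 0.98 for Cct5, 0.92 for Tcp1, 0.87 for Cct4 and 0.78 for Cct7. It was 0.66 for Cct2 and Cct8, 0.65 for Cct3 and -0.20 for Cct6a. Cct6b was nearest to Cct2 (0.91) and Cct7 (0.90) and farthest from Cct6a (-0.69). Relative to the median of the other 8 subunits, Cct6a stood 0.30 higher in stem cells, and 0.22 higher without stem cell array 1. Cct6b had a difference of -0.26 on that scale, with 0.08, -0.09 and 0.03 in total testicular cells and -0.62, -0.18 and 0.03 in stem cells. Stem cell array 3 lay among the controls, and without stem cell array 1 the difference was -0.083.

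Among 10907 other genes above background, the 5 with profiles nearest to Cct6b were Lsm12, Dpf3, Gnb1l, Rangrf and Mxd4, with r between 0.994 and 0.999, but 1335 genes exceeded r = 0.9. Lsm12 measured 6.19, 6.11 and 6.06 against 5.42, 5.95 and 5.998, and thus had its low point on stem cell array 1 as well. The 5 nearest to the mean of the other 8 subunits were Nit1, the mitochondrial ribosomal protein gene Mrpl39, the respiratory complex I genes Ndufb2 and Ndufc1, and the signalosome subunit gene Cops3, with r between 0.990 and 0.995. For that profile 405 genes exceeded r = 0.9. Mrpl39 measured 10.84, 10.92 and 10.75 against 10.57, 10.83 and 10.58, high on array 2 of both groups. None of these 10 genes passed the test (adjusted p from 0.162 to 0.567).

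The partners of the ring were then taken by role, in lists of 75 genes of which 65 were measured. Of these 65, 1 passed higher and 0 lower at an adjusted p of 0.05, beside 1.63% and 0.137% of all named genes. At an unadjusted p of 0.05, 10 were higher and 9 lower, while 11.8% and 13.1% of all named genes were, so these counts lay near the background. The median difference was -0.09, with 42 negative and 23 positive, against -0.05 and 57% negative over all named genes.

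Prefoldin, which delivers nascent actin and tubulin, had 7 of 8 genes measured and 0 passed, with a median of -0.16. Pfdn1 had a difference of -0.32 ± 0.13, with 8.29, 8.32 and 8.30 in total testicular cells and 7.92, 8.11 and 7.91 in stem cells. Its groups did not overlap, but its adjusted p was 0.179. Vbp1, another subunit, differed by 0.21 and Uri1, a prefoldin-like protein, by -0.20. Both moved toward 0 without stem cell array 1, to 0.085 and -0.051. The 3 probe sets of Uri1 ran from -0.20 to 0.50, so its sign depends on the probe set.

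Among the phosducin-like cochaperones 0 of 4 passed, with a median of 0.01. Pdcl2, a germ cell form, measured 10.91, 10.89 and 10.85 in total testicular cells and 10.26, 10.69 and 10.34 in stem cells. Every stem cell array was lower, by a narrow margin on array 2. The difference was -0.45 ± 0.13 (adjusted p = 0.0940). Pdcl3, at a much dimmer level, ran the other way, with 3.50, 4.13 and 3.75 against 4.59, 4.28 and 4.15 and a difference of 0.54 ± 0.22 (adjusted p = 0.177). Pdcl differed by 0.18, and by -0.0086 without stem cell array 1. The cofactors that assemble tubulin dimers had 7 of 7 measured, 0 passed and a median of -0.15. Tbcc, which acts last in dimer release, differed by -0.48 ± 0.19 (adjusted p = 0.169), the tubulin cofactor partner Arl2 by -0.32 and Tbce by -0.19. These became -0.28, -0.28 and -0.12 without stem cell array 1.

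The mitochondrial chaperonin, a relative of the cytosolic one, led the list of other chaperonins. Hspd1, the Hsp60 subunit of the mitochondrial barrel, measured 6.003, 6.30 and 5.39 in total testicular cells and 7.73, 7.14 and 6.46 in stem cells. Its co-chaperonin Hspe1 measured 5.55, 6.15 and 5.57 against 7.33, 6.86 and 6.50. All stem cell arrays of both genes lay above all controls, and array 1 was highest. The differences were 1.21 ± 0.33 (adjusted p = 0.0919) and 1.14 ± 0.25 (adjusted p = 0.0594), so that neither passed. With the fluidics round as a block both did, at 1.52 (adjusted p = 0.0330) and 1.32 (adjusted p = 0.0292), and likewise without stem cell array 3, at 1.54 (adjusted p = 0.0166) and 1.34 (adjusted p = 0.0148). Stem cell array 3 was alone in its round, so the block takes up its value. Here and below, these settings are therefore not separate checks. Hspd1 also passed on the hybridization control centring (adjusted p = 0.0354), where Hspe1 did not (adjusted p = 0.0569). Hspe1 also passed with array weights (adjusted p = 0.0244), where Hspd1 did not (adjusted p = 0.0625). The summed levels of macrophage, Leydig and Sertoli markers and the actin gap were also highest on stem cell array 1. Their part in these values was not tested. Mkks, a chaperonin-like protein, differed by -0.03, and the list had 3 of 5 genes measured and a median of 1.14.

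The Hsp70 and Hsp90 list, chaperones that act before and beside the ring, had 13 of 15 genes measured, 0 passed and a median of -0.11. A negative difference was found for 11 of the 13, beside 57% of all named genes and 81.4% of the bright ones. Hspa8, the constitutive Hsp70, measured 7.88, 8.06 and 7.59 in total testicular cells and 9.75, 8.85 and 8.38 in stem cells. The groups did not overlap, and the difference was 1.15 ± 0.30 (adjusted p = 0.0844). It passed with the fluidics round as a block (1.49, adjusted p = 0.0222), with array weights (adjusted p = 0.0343), without stem cell array 3 (adjusted p = 0.0137) and on the hybridization control centring (adjusted p = 0.0405). The round block and the omission of stem cell array 3 are not separate checks. The heat-inducible Hspa1b differed by 1.02 ± 0.26 (adjusted p = 0.0806), at 2.303 to 2.76 in total testicular cells and 2.91 to 3.89 in stem cells, and it passed under the same 4 settings. Hspa2, the Hsp70 of spermatocytes, had a difference of -0.42 ± 0.18 (adjusted p = 0.194), and -0.22 without stem cell array 1. Members of this family share sequence, and binding of probes to a relative was not tested.

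Of the client genes for actin and tubulin, 16 of 20 were measured, 1 rose and 0 fell, with a median of 0.02. Tubb5, a beta tubulin found in most cell types, measured 6.60, 6.79 and 6.31 in total testicular cells and 7.98, 7.54 and 7.39 in stem cells. The groups lay well apart. It rose by 1.07 ± 0.20 (95% interval 0.62 to 1.53; adjusted p = 0.0421), a ratio of 2.10, and by 1.53 and 0.76 within the first and the third rounds. The call was lost on leaving out total testicular cell array 1 (1.09, adjusted p = 0.213), array 2 (1.18, adjusted p = 0.117) or array 3 (0.94, adjusted p = 0.231), on omitting the intensity trend (adjusted p = 0.0581) and on centring on the hybridization controls (0.91, adjusted p = 0.0872). Tuba1a, an alpha tubulin, measured 7.28, 7.76 and 7.19 against 8.43, 8.21 and 8.13, with a difference of 0.85 ± 0.18 (adjusted p = 0.0567). It passed with the fluidics round as a block (0.88, adjusted p = 0.0491), with array weights (adjusted p = 0.0312) and without stem cell array 3 (adjusted p = 0.0316). Again, the round block and that omission are not separate checks. Tubd1, delta tubulin, had a difference of -0.63 ± 0.27 (adjusted p = 0.197), and -0.36 without stem cell array 1.

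The WD40 and other proposed clients had 15 of 16 genes measured, 0 passed and a median of -0.10. Vhl, the tumour suppressor that the ring folds before it joins its ligase, measured 5.02, 4.99 and 5.05 in total testicular cells and 3.94, 4.71 and 4.36 in stem cells. Its stem cell arrays were all lower, and the difference was -0.68 ± 0.22 (adjusted p = 0.120). Stat3, a cytokine-activated transcription factor, differed by 0.58 (adjusted p = 0.148) and the mitotic kinase Plk1 by -0.52. On leaving out stem cell array 1 these were 0.39 and -0.27. The 3 probe sets of Stat3 ran from -0.04 to 0.84.

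**Figure D4:**
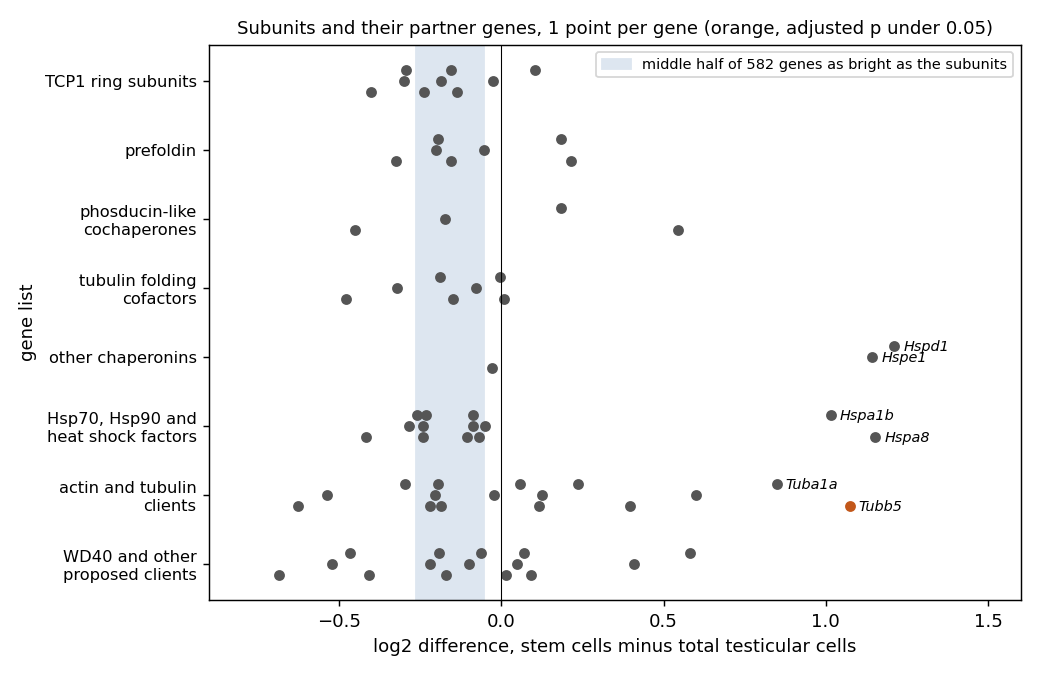
Log2 difference, stem cells minus total testicular cells, with 1 point per gene for the 9 subunits and the 7 partner lists (vertical position within a list is only for legibility). Orange marks an adjusted p under 0.05. The shaded band holds the middle 50% of 582 genes at least as bright as the dimmest subunit, from -0.26 to -0.05. Tubb5 (1.07) is the one orange point, and the subunits lie between -0.40 and 0.10.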

How the data were processed

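Each of 6 RNA samples was read on its own array after biotin labelling, per the labels' protocols. The authors deposited log2 summaries per probe set. MAS5 and RMA are named in the submitters' processing notes; their roles and the background correction are not given in the sources used here. An array has no read depth, and signal over background and the number of arrays limit precision. Per the file headers, chip lot and scanner were the same for all arrays. Arrays started within 15 minutes of each other formed 1 fluidics round.

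Groups came from the sample titles. The 64 control probe sets were left out, and of 22626 tested, 20380 carried 1 gene name, 691 several names and 1555 none. Only those with 1 name were used to name genes. Background was the 95th percentile of the means of 27 bacterial control probe sets. Groups were compared with limma 3.58.1 in R 4.3.3 (two-sided moderated test after lmFit, eBayes trend on intensity, degrees of freedom 4 from residuals and 5.21 from the prior) and Benjamini-Hochberg adjustment over all tested probe sets, at 0.05. The brightest probe set stood for a gene. The Cct6b to Cct6a ratio had an exact permutation test. The procedure was tested on simulated data. It recovered 8.96% of log2 changes of 0.5, 76.1% of changes of 1 and 100% of changes of 2, with 11 false calls among 134. A summed level is the log2 of summed linear values.

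Though the rule for members uses symbols alone, the members and lists were chosen with earlier results of these data known. Named genes were the 9 subunits, of each partner list the members past the threshold or otherwise the 3 largest differences, the 5 genes nearest in profile to Cct6b and to the other subunits, and Csf1r, Lyz2, Star, Prm1, Sycp3 and Stra8. Tuba1a, Tubd1 and the markers Clu, Id4, Itga6, Lin28a and Cdh1 were named beyond that rule. The neighbour genes and motifs were added after values were seen. Marker lists covered macrophages, Leydig, Sertoli, peritubular myoid, endothelial and erythroid cells, undifferentiated and differentiating spermatogonia, spermatocytes and spermatids. Replicate numbers were checked for pairing: deviations of same-numbered arrays correlated at -0.01, 0.01 and 0.30, so the numbers were not taken as pairs. Promoter sequences are from RefSeq (GRCm38.p6).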

Additional observations from a re-analysis of the deposited data

How the results depend on the processing

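No subunit gene passed under any of 18 alternatives, and Tcp1, Cct2, Cct5, Cct6b, Cct7 and Cct8 kept a negative difference in each one run on them. Signs turned only among differences of at most 0.16 in size, 30 times in all over genes and probe sets, 18 of these on leaving out an array and 9 of the 30 in 1415868_at and 1436973_at, which lie below background and carry no direction. Median centring turned Cct6a (probe set 1423517_at) to -0.0080, 1426067_x_at to -0.10, 1451915_at to -0.021 and 1455988_a_at to -0.077. Centring on the hybridization controls, chosen after seeing the data, turned them to -0.062, -0.15, -0.074 and -0.13. Array weights turned Cct3 (1448178_a_at) to 0.0011 and 1436973_at to 0.029, the fluidics round as a block turned 1415868_at to 0.023, and the most variable probe set turned Cct4 to 0.22. Leaving out each array in turn gave ranges of -0.10 to 0.064 for Cct3, -0.045 to 0.11 for 1426067_x_at, -0.0060 to 0.15 for 1451915_at, -0.085 to 0.050 for 1456572_x_at, -0.059 to 0.014 for 1415868_at, -0.044 to 0.14 for 1455988_a_at and -0.067 to 0.047 for 1436973_at. The cause was not tested. The Cct6b to Cct6a ratio ranged from -0.65 to -0.27 over the arrays left out.

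Partner genes past the threshold, 1 higher and 0 lower, became 6 and 1 with the replicate number as a block (Pdcl2 lower; Hspa1b, Tubb5, Hspd1 at an adjusted p of 0.0102, Hspe1 at 0.0196, Hspa8 at 0.0117 and Tuba1a at 0.0219 higher), 7 and 0 with the fluidics round as a block, 5 and 0 with array weights, 0 and 0 without an intensity trend, 3 and 0 on the hybridization control centring, and 6 and 1 at an adjusted p under 0.10. Leaving out an array gave 0 to 7 higher and 0 to 4 lower: 0 and 0 without any 1 total testicular cell array, 1 and 4 without stem cell array 2, and 7 and 0 without stem cell array 3. The last of these is not separate from the round block, since stem cell array 3 was alone in its round. The replicate block left the ratio at -0.50 and the subunit calls at 0. The median of all named genes was -0.05 as deposited, -0.07 after quantile normalization, -0.16 after median centring and -0.22 on the hybridization controls, with 202, 148, 237 and 516 genes higher and 17, 15, 46 and 221 lower. An alternative for linear values did not apply, since the values are log2.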
